A study of Caenorhabditis elegans with 4 samples.

Results

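The X chromosome of Caenorhabditis elegans held 1483 of the 8636 peaks in the pooled LIN-15B peak list of L4 larvae, and 33 of them were among the 383 optimal peaks, the peaks the authors kept after testing reproducibility between replicates. The X peaks were taken as every pooled peak on that chromosome in build ce11, so no score or sequence chose them. The remaining 7135 nuclear peaks lay on the 5 autosomes, 332 of them optimal. A further 1448 X peaks overlapped no optimal peak and are called candidates here, and 2 overlapped an optimal peak without being one.

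Chromatin immunoprecipitation with sequencing was done on whole L4 larvae, males and females pooled in shares not given, of strain OP184, genotype unc-119(tm4063) III; wgIs184. The strain carries a stably inherited LIN-15B transgene tagged at the C terminus with GFP and FLAG, and the labels name no second strain or condition. The 4 samples form 1 group of 3 biological replicates, of which replicate 3 is 2 technical libraries behind 1 peak list. Each peak has a score, the authors' signal value, used here only to rank peaks within a list, and no read counts were given, so the depth of each sample is unknown. Replicate lists held 30000 peaks each, of which 5704, 5857 and 5033 were on X in replicates 1, 2 and 3. The 383 highest-scoring peaks of each replicate are called top-ranked. With 3 replicates the smallest two-sided p of an exact sign-flip permutation test is 0.25, so no difference could pass 0.05, and the spread over replicates is given instead.

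LIN-15B is a nuclear protein with a THAP domain, a zinc-binding DNA contact module, and belongs to the synMuv B class, genes known from vulval development and from keeping germline genes silent in somatic tissue. The worm X differs from the autosomes in several ways: it is largely silent in the germline, and in the soma of hermaphrodites a condensin-based dosage compensation complex lowers its expression. That complex loads at recruitment elements on X that carry a word enriched on X, known as MEX, whose core was searched here as GCGCAGGG on both strands. A match of letters is a description of the DNA and does not show a binding site.

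The sequences at the strongest X peaks that recurred in replicates are given first, since some hold the MEX core and others do not. Of the 33 optimal X peaks, 10 had a summit that was covered by top-ranked peaks in each of the 3 replicates. The 7 shown first are the highest-scoring of these whose window holds no annotated UTR, and the last is the optimal peak nearest to lin-15B, the gene carried by the transgene. Each is the 201 bases around the summit, from the plus strand of the WBcel235 assembly, with the MEX core in capitals (CCCTGCGC is the core read from the other strand). In the peak at ZK678.t1 the capitals mark the part of that tRNA gene inside the window.
puf-9 peak, chrX:5841207-5841407: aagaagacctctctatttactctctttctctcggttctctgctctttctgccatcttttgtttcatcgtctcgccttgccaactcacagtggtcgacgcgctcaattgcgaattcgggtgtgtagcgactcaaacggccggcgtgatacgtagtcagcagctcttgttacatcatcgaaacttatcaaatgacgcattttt
rank 70 peak, chrX:11094132-11094332: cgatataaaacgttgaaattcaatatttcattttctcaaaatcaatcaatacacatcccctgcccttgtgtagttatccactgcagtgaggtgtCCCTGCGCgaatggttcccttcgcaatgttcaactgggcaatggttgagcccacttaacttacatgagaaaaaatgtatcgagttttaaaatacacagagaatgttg
ZK678.t1 and nhr-255 peak, chrX:15741929-15742129: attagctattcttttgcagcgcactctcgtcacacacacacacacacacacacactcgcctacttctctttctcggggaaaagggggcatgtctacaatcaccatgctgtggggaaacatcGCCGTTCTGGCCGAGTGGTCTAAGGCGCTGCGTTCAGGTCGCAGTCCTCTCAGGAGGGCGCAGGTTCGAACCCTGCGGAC
mom-1 intron peak, chrX:6296430-6296630: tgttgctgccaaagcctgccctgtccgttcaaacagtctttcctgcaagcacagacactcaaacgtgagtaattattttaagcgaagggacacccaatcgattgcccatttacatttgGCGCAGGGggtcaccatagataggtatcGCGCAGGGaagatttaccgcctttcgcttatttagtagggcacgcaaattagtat
rank 131 peak, chrX:806588-806788: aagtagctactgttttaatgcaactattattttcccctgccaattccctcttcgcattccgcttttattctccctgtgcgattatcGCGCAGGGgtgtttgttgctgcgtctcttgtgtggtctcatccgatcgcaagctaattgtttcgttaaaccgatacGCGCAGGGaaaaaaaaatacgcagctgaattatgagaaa
serp-1.1 peak, chrX:15841116-15841316: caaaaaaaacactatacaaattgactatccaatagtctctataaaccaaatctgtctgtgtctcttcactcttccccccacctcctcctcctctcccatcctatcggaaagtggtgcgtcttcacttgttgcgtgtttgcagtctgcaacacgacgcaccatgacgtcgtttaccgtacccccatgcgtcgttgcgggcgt
ftt-2 peak, chrX:11605821-11606021: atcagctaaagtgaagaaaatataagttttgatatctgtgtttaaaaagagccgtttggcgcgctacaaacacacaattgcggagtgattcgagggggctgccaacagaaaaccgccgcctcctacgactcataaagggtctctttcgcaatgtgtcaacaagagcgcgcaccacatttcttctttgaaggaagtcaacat
lin-15B peak, chrX:15725119-15725319: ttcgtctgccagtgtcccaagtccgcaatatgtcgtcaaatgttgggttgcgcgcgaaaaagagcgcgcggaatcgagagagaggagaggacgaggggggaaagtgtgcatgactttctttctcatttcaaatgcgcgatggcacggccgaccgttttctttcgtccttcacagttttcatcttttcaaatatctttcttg
The puf-9, ZK678.t1, serp-1.1, ftt-2 and lin-15B windows hold no MEX core. The windows of rank 70 and rank 131 are intergenic, and that in mom-1 is intronic.

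X peaks were about as frequent along the chromosome as autosomal ones, yet a smaller share of them reached the optimal list. Males carry a single X and their share in the pooled larvae is not given, so the copy number of X relative to the autosomes is unknown, and its part in the differences between them in density, score and optimal share was not tested. X held 83.7 pooled peaks per Mb and the autosomes 86.4, while optimal peaks stood at 1.86 per Mb on X and 4.02 per Mb on the autosomes. Of the pooled peaks, 2.23% on X were optimal (33 of 1483, 95% Wilson interval 1.59 to 3.11) and 4.65% on the autosomes (332 of 7135, 4.19 to 5.17), against 4.24% of all nuclear pooled peaks. These intervals, like the others below, cover counting error only. The X share was below that of each autosome, of which V was lowest at 3.398% (2.61 to 4.41) and I highest at 5.81% (4.70 to 7.18), and the intervals of X and V overlap.

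**Figure D1:**
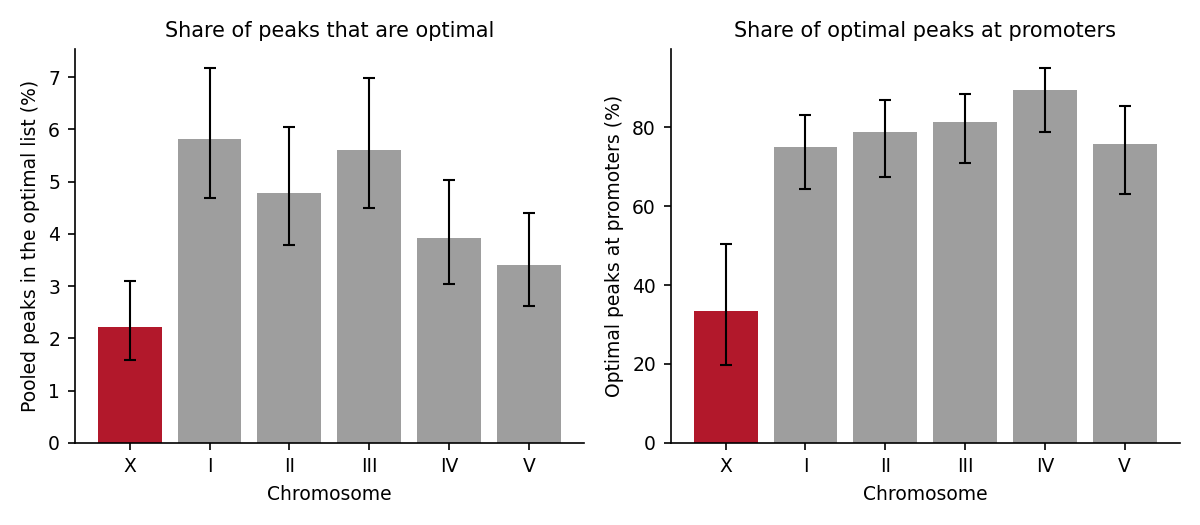
Bars give, for X (red) and each autosome (grey), the percentage of pooled LIN-15B peaks that were optimal (left) and the percentage of optimal peaks with the summit at a promoter (right), with 95% Wilson intervals. X is lowest in both panels, at 2.23% and 33.3%.

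The replicates, on which the pooled list draws, gave the same order. In replicate 1, 0.719% of X peaks and 1.33% of autosomal peaks were top-ranked. In replicate 2 the shares were 0.666% on X and 1.42% on the autosomes, and in replicate 3 they were 0.656% on X and 1.30% on the autosomes. The difference averaged -0.67 percentage points ± 0.078 (SD, n = 3, X lower in 3 of 3, exact sign-flip permutation p = 0.25). By rank in the pooled list, X supplied 5 of the 90 nuclear peaks in the first 100 ranks (5.56%), 10.2% of the rest down to rank 383 and 13.8% in ranks 384 to 1000, but between 17.1% and 18.9% in each range below that. The median score was 13.4 on X and 13.6 on the autosomes, and the median percentile of X within replicate lists was lower than the autosomal one in 1 of 3 replicates, a difference of -0.08 ± 1.54 (SD, n = 3, exact sign-flip permutation p = 1.00). In the pooled list this difference was -1.69, and it was between -8.55 and -5.67 when each replicate was left out by keeping pooled peaks found in both others. The highest X score was 89.2, at rank 46, while each autosome had a peak at rank 21 or better.

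Most optimal X peaks lay away from promoters, and most autosomal ones at them. A peak was counted at a promoter where its summit lay in the window from 500 bp before to 100 bp after a start of a protein-coding transcript. On X, 11 of 33 optimal peaks were at promoters (33.3%, interval 19.8 to 50.4), and on the autosomes 265 of 332 (79.8%, 75.2 to 83.8), and single autosomes lay between 60 of 80 on I and 51 of 57 on IV (89.5%). Among top-ranked replicate peaks the promoter share was 29.3%, 33.3% and 36.4% on X and 70.6%, 67.7% and 72.4% on the autosomes in replicates 1, 2 and 3. Each X value lay below each autosomal one, and the difference averaged -37.27 percentage points ± 3.61 (SD, n = 3, exact sign-flip permutation p = 0.25).

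Promoters also take up less of X, by a smaller factor. The promoter windows covered 11.5% of X bases and 14.7% of autosomal bases, with 154 protein-coding genes per Mb on X and between 188 and 239 on single autosomes. Candidate peaks on X were at promoters in 15.2% of cases and autosomal candidates in 25.1%. Within the pooled list the promoter share fell with rank on both, and the X share was the lower one in every range of ranks: 32.1% on X and 75.7% on the autosomes in the optimal ranks after the first 100, and 11.7% on X and 18.99% on the autosomes in the last range. Counted from the peaks, 11 of 231 X promoter peaks were optimal (4.76%, 2.68 to 8.32) and 265 of 1975 autosomal ones (13.4%, 11.99 to 15.0). Away from promoters the shares were close, 22 of 1252 on X (1.76%, 1.16 to 2.65) and 67 of 5160 on the autosomes (1.30%, 1.02 to 1.65). Divergent promoters, with starts on both strands in reach of 1 summit, made up 3 of the 11 X promoter peaks and 107 of the 265 autosomal ones. In the top-ranked replicate peaks the divergent share of promoter peaks was 16.7%, 23.1% and 8.33% on X and 37.7%, 40.3% and 34.6% on the autosomes.

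The annotation at the summits was mainly intergenic for optimal peaks on X and on the autosomes. On X, 26 of 33 optimal summits were intergenic (78.8%), 5 were in exons of noncoding genes, 1 was in an intron and 1 in a 5' UTR, and 0 were in coding exons. Of the autosomal optimal summits 78.6% were intergenic. X candidates were different, with 41.6% intergenic, 29.7% in introns and 16.6% in coding exons. The nearest protein-coding start was a median of 904 bp from X optimal summits and 202 bp from autosomal optimal summits. It was more than 1000 bp away for 15 of 33 on X (45.5%) and for 36 of 332 on the autosomes (10.8%).

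The 11 promoter peaks named 14 genes, and these were 0.513% of the 2731 protein-coding genes on X. The highest score on X, 89.2, was at chrX:5841240-5841324, in exons of the noncoding genes W06B11.7 and W06B11.9 and 285 bp upstream of puf-9, which encodes a Pumilio-family RNA-binding protein. It ranked 54, 34 and 67 in replicates 1, 2 and 3. The next, score 80.5, lay 4 bp inside the 5' UTR of pdi-6, a protein disulfide isomerase gene, and ranked 73, 90 and 65. Both were among the 100 strongest peaks of every replicate.

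Several promoter peaks sat at genes of the secretory pathway. The peak between trap-2, for a subunit of the translocon-associated complex, and ile-2, for a lectin of the early secretory pathway, lay 198 and 329 bp upstream of their starts and had ranks 120, 59 and 2201 in replicates 1, 2 and 3. At hsp-3, which encodes an Hsp70 chaperone of the endoplasmic reticulum, the summit was 52 bp upstream and the ranks were 17221, 82 and 191. The sec-3 peak, 208 bp upstream of this exocyst subunit gene, had ranks 1749, 1496 and 370. These genes were grouped after their values were seen, and no test was made of the grouping. Replicate 1 placed the hsp-3 peak far below the other replicates, and replicate 3 did so for trap-2 and ile-2.

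The other promoter peaks belonged to varied genes. The summit 369 bp upstream of rpl-11.2, for a protein of the large ribosomal subunit, ranked 190, 381 and 172. The one between asg-2, for a subunit of ATP synthase, and glr-6, for a glutamate receptor subunit, ranked 7901, 162 and 147. The peak between glit-1, a gliotactin homologue, and dnj-14, for a J-domain co-chaperone, ranked 148, 24815 and 566, so only replicate 1 had it among its top-ranked peaks. The serp-1.1 peak, 356 bp upstream, ranked 359, 177 and 80. Near it, 279 bp upstream of the acyltransferase gene acl-1, a peak ranked 152, 286 and 420. Farther away on X, a peak lay 256 bp upstream of nipi-3, a Tribbles-family pseudokinase gene. It ranked 136 and 843 in replicates 1 and 3 and was top-ranked in replicate 2.

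Of the 22 optimal X peaks outside promoters, 7 had a protein-coding start within 1000 bp and 15 had none. The peak nearest to nhr-255, a nuclear hormone receptor gene, had a score of 70.2 at chrX:15741859-15742198, 581 bp upstream of that gene and 21 bp from the tRNA gene ZK678.t1, and ranked 94, 56 and 77. It also lay 15906 bp after the start of lin-15B, the gene carried by the transgene, and the part of the transgene in it was not tested. The peak 502 bp upstream of ftt-2, a 14-3-3 protein gene, was in an exon of the noncoding gene F52D10.7 and ranked 323, 324 and 107. A second optimal peak lay 2518 bp from it, the closest pair on X, and ranked 150 in replicate 1 and 404 in replicate 3 and was absent from replicate 2. Upstream of epn-1, an epsin gene, a summit at 530 bp ranked 25963, 173 and 297. The remaining named neighbours were nspc-17 at 592 bp, ins-39, an insulin-like peptide gene, at 656 bp, lin-15B at 904 bp and T24D8.6, whose start lay 975 bp upstream of the summit. A tRNA gene lay within 500 bp of 3 of 33 X optimal summits (9.09%, 3.14 to 23.6) and 1 of 332 autosomal ones (0.301%, 0.053 to 1.69), while X holds 276 tRNA genes and the autosomes 336. Among candidates the share was 78 of 1448 on X (5.39%, 4.34 to 6.67) and 97 of 6784 on the autosomes (1.43%, 1.17 to 1.74), so the intervals of optimal and candidate X peaks overlap.

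**Figure D2:**
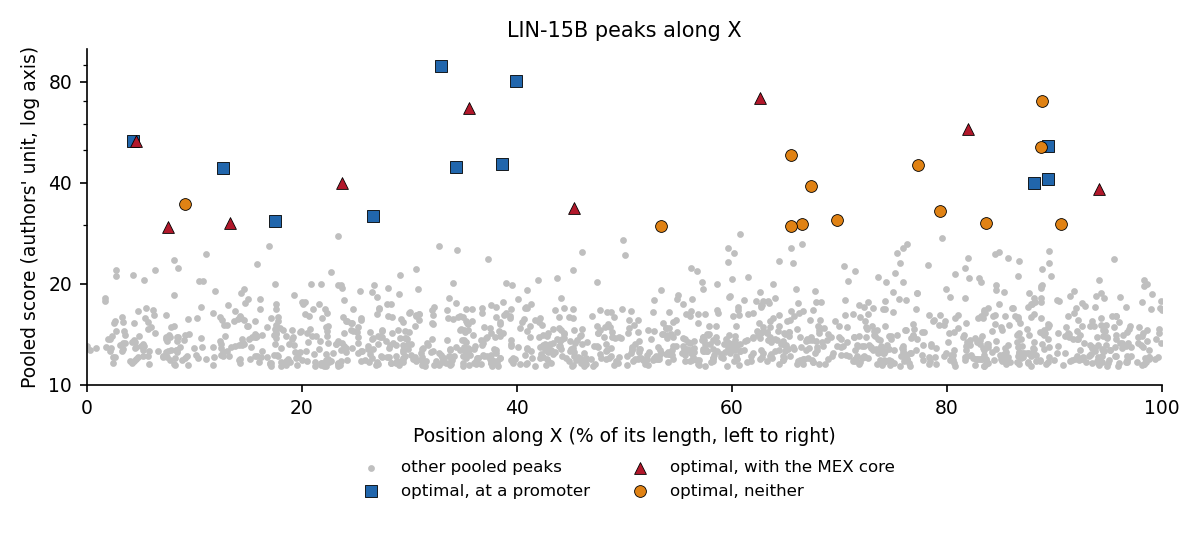
Each point is a pooled LIN-15B peak on X, placed by its summit as a percentage of the length of X, with its pooled score on a log axis. Optimal promoter peaks (blue squares) lie in the left 40% or near 88% to 90%, and optimal peaks with the MEX core (red triangles) are spread from 4.55% to 94.1%.

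The MEX core was found in 9 of the 33 optimal X windows, which reach 150 bases to each side of the summit, (27.3%, 15.1 to 44.2), and in 7 of 1448 X candidate windows (0.483%, 0.234 to 0.995). On the autosomes it was in 1 of 332 optimal windows (0.301%, 0.053 to 1.69) and 6 of 6784 candidate windows (0.088%, 0.041 to 0.193). Cut into windows of the same length, the whole of X held it in 75 of 58866 (0.127%) and the autosomes in 222 of 274263 (0.0809%). All 9 peaks lay outside promoters, where they made up 9 of 22 (40.9%, 23.3 to 61.3), against 1 of 67 autosomal optimal peaks outside promoters (1.49%, 0.264 to 7.98). Of the 11 X promoter windows 0 held it, with a Wilson upper bound of 25.9%. The mom-1 peak lies in an intron of that gene, which encodes a Porcupine-like protein needed for Wnt secretion.

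Replicate lists, each ranked on its own, gave the same contrast, but the pooled list draws on them and is not independent of them. The MEX comparison was added after the values were seen. The core was in 7 of 41 top-ranked X peaks of replicate 1 (17.1%) and 0 of 323 autosomal ones. It was in 4 of 39 on X (10.3%) and 1 of 344 on the autosomes (0.291%) in replicate 2, and in 6 of 33 on X (18.2%) and 2 of 323 on the autosomes (0.619%) in replicate 3. The difference averaged 14.87 percentage points ± 4.25 (SD, n = 3, X higher in 3 of 3, exact sign-flip permutation p = 0.25). Against the rest of the X peaks in the same lists, where the core was in 0.141%, 0.344% and 0.320%, top-ranked X peaks were higher by 14.90 ± 4.35 (SD, n = 3). X and autosomal peaks below the top ranks differed by 0.187 percentage points ± 0.120 (SD, n = 3).

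**Figure D3:**
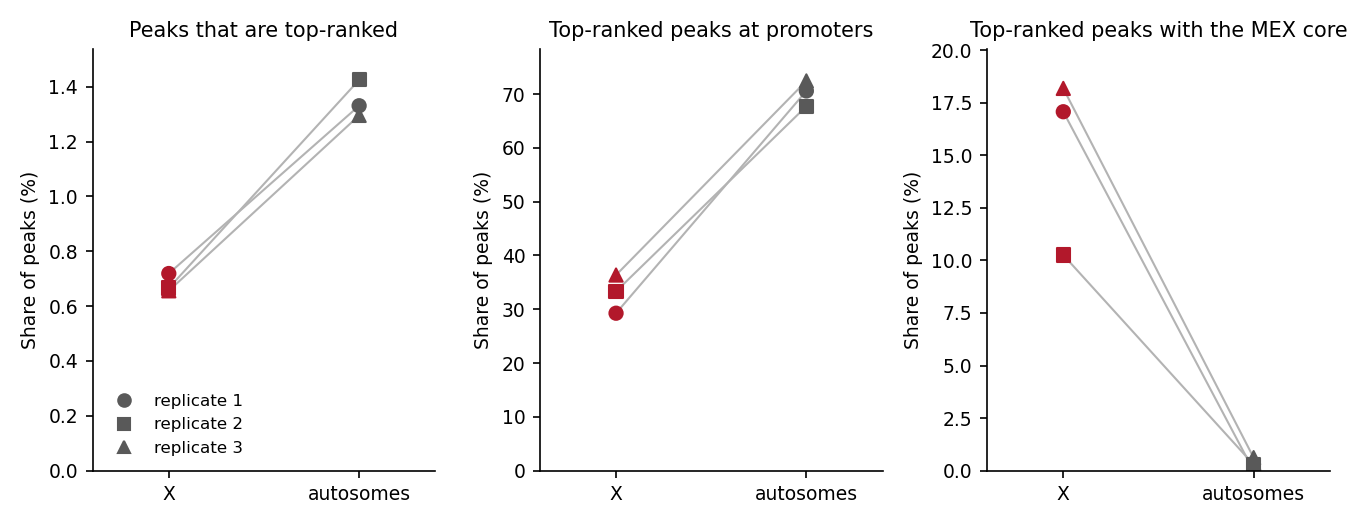
For each replicate list, points give the percentage of peaks that were top-ranked (left), the percentage of top-ranked peaks at promoters (middle) and the percentage of top-ranked peaks with the MEX core (right), on X (red) and on the autosomes (grey), with lines joining 1 replicate. X lies below the autosomes in the first 2 panels in every replicate, and above them in the last, at 17.1%, 10.3% and 18.2%.

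The core was concentrated in the highest ranks of X. It was in 2 of the 5 X peaks in the first 100 ranks, 7 of 28 in the other optimal ranks, 5 of 85 in ranks 384 to 1000 (5.88%) and 1 of 171 in the next range down to rank 2000 (0.585%). The count in ranks 384 to 1000 includes a peak that overlapped an optimal peak and so was not a candidate. None of the 461 X peaks below rank 6000 held it. The 7 X candidates with the core had ranks 462, 486, 702, 787, 1559, 3036 and 4940. The first of these was intergenic and had rank 162 in replicate 1, 12317 in replicate 2 and no covering peak in replicate 3. The second, in an intron of Y41G9A.17, had rank 78 in replicate 1 and no covering peak in replicates 2 and 3. The rank 787 peak lay in an intron of egl-17, a fibroblast growth factor gene.

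**Figure D4:**
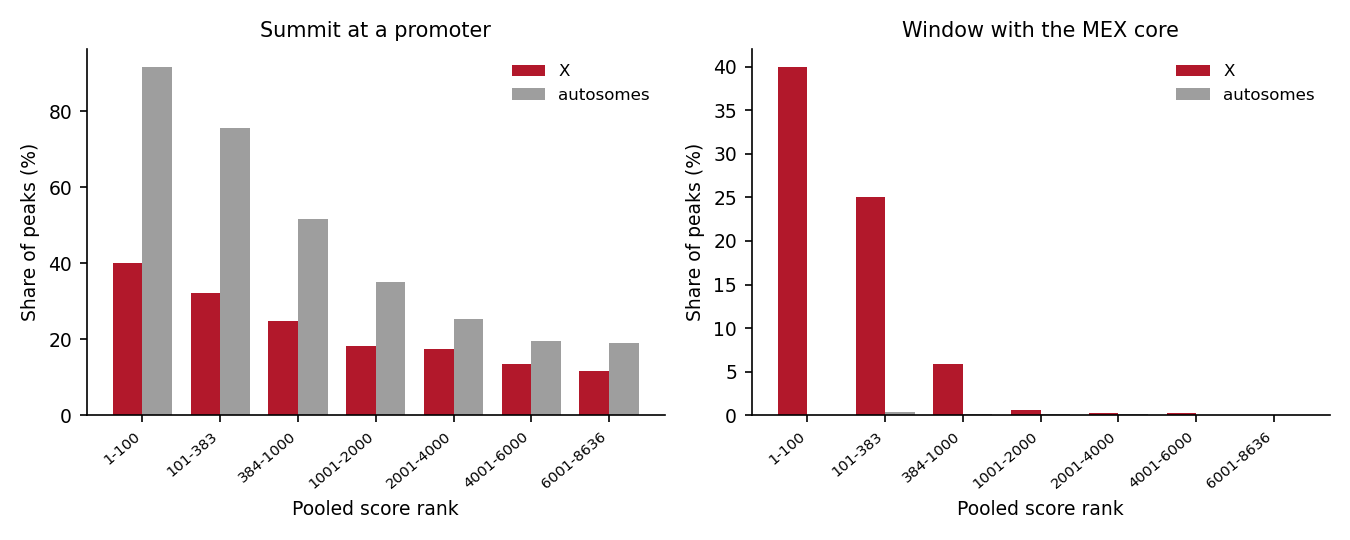
Bars give the percentage of X (red) and autosomal (grey) peaks with the summit at a promoter (left) or with the MEX core within 150 bases of the summit (right), by pooled score rank. On X the core is in 2 of 5 peaks of the first bin and 7 of 28 of the second, while the promoter share is lower on X in every bin.

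The 9 peaks held 13 copies of the core, 4 of them with 2 copies each. Their 30-base stretches are shown on the strand that carries the word as GCGCAGGG, in capitals, in order of pooled rank, because the bases next to it also recur.
rank 70, chrX:11094114-11094143, minus strand: cgttttatatcGCGCAGGGagcttatgcat
rank 70, chrX:11094215-11094244, minus strand: gggaaccattcGCGCAGGGacacctcactg
rank 82, mom-1, chrX:6296537-6296566, plus strand: atttacatttgGCGCAGGGggtcaccatag
rank 82, mom-1, chrX:6296565-6296594, plus strand: agataggtatcGCGCAGGGaagatttaccg
rank 114, nspc-17, chrX:14525889-14525918, minus strand: tattgcctatcGCGCAGGGacagatgtggt
rank 131, chrX:806663-806692, plus strand: gtgcgattatcGCGCAGGGgtgtttgttgc
rank 131, chrX:806739-806768, plus strand: taaaccgatacGCGCAGGGaaaaaaaaata
rank 215, chrX:4209255-4209284, minus strand: ttgccgctatcGCGCAGGGacacctctttc
rank 238, chrX:16682161-16682190, minus strand: aagaaaacatcGCGCAGGGaacatcaaatt
rank 294, chrX:8036390-8036419, minus strand: aattttttatcGCGCAGGGacgtatgtcga
rank 294, chrX:8036424-8036453, plus strand: atttttccatcGCGCAGGGaacccttcgat
rank 344, T24D8.6, chrX:2364888-2364917, minus strand: aaaataattaaGCGCAGGGatatatagtac
rank 370, ins-39, chrX:1345045-1345074, plus strand: caatgtcattcGCGCAGGGcagctgagccc
The base before the core was C in 11 of the 13 copies, and the 2 bases before it were TC in 10. On the whole of X, 19 of 81 copies were preceded by TC (23.5%), and on the autosomes 6 of 233 (2.58%). Of the 19 X copies with TC, 10 lay within 150 bp of an optimal summit and 12 within 150 bp of a pooled summit. Of the 62 X copies without it, 3 lay by an optimal summit and 8 by a pooled one. By the summits of top-ranked peaks in replicates 1, 2 and 3 the counts were 8, 6 and 8 of 19 with TC and 2, 2 and 2 of 62 without. The 2 preceding bases were examined after the sequences had been seen, and TC was picked from the 13 copies by optimal summits. The counts by optimal summits therefore restate that choice. Those by pooled and top-ranked summits include many of the same copies, so none of them is separate support. In all, 61 of the 81 copies on X were by no pooled summit. A copy was centred within 50 bp of the summit in 6 of the 9 peaks.

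The MEX-bearing peaks differed between replicates in rank. Their median rank was 153 in replicate 1, 1122 in replicate 2 and, over the 8 peaks covered, 136.5 in replicate 3. The 11 promoter peaks had medians of 152, 177 and 191, and the 13 optimal X peaks with neither a promoter nor the core had medians of 1364, 248.5 and 363 over those covered. The rank 70 peak, with 2 copies, was at ranks 45, 81 and 162, and the one in the mom-1 intron, also with 2, at 153, 87 and 129. The rank 131 peak was at 263, 130 and 138. Those at rank 215 and rank 344 were top-ranked in replicate 1 alone, at 55 and 77, and stood at 7495 and 14203 in replicate 2. The peak at rank 294 lay 238 bp from a tRNA gene and ranked 584, 216 and 135. Its nearest protein-coding start, 4866 bp away, was that of xol-1, the X-linked switch gene of sex determination. The rank 370 peak near ins-39 was top-ranked in no replicate, at 1319, 4540 and 431.

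**Figure D5:**
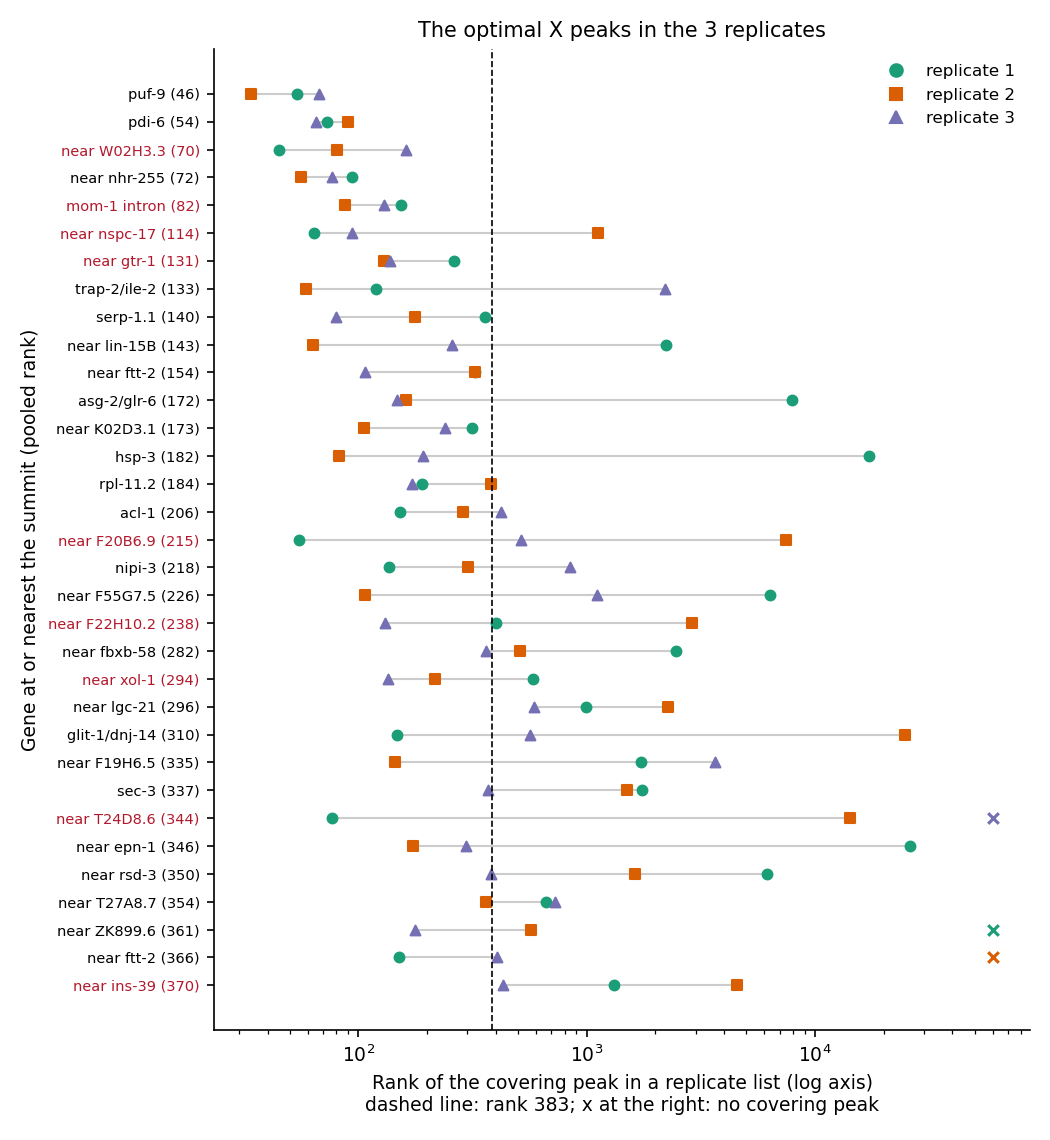
For each of the 33 optimal X peaks, in order of pooled rank (in brackets), symbols give the rank of the covering peak in replicates 1 to 3 on a log axis; red names hold the MEX core and the dashed line is rank 383. In all, 10 peaks lie left of the line in all 3 replicates and 2 in none.

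Over the whole set, recovery in replicates was close to that of the autosomal peaks. The summit of an optimal peak was inside a top-ranked replicate peak for 54.5%, 63.6% and 63.6% of X peaks and 60.2%, 68.4% and 69.6% of autosomal peaks in replicates 1, 2 and 3, a difference of -5.46 percentage points ± 0.637 (SD, n = 3, X lower in 3 of 3, exact sign-flip permutation p = 0.25). Within promoters the means were 72.7% ± 9.09 on X and 69.3% ± 3.85 on the autosomes, and outside promoters 54.5% ± 9.09 on X and 53.2% ± 9.94 on the autosomes (SD, n = 3). In the full lists 32 of 33 X optimal summits were covered in each replicate. Candidate summits were covered in 56.1%, 72.8% and 51.9% of cases on X and 55.4%, 69.5% and 58.3% on the autosomes. Because the pool contains each replicate, recovery is not independent of it.

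The other words searched showed smaller differences in share between optimal X peaks and X candidates. CTGCGTCT was in 12.1% of X optimal windows, 2.28% of X candidates and 12.95% of autosomal optimal windows, and in 0.844% of all X windows. TTTGAA was in 42.4%, 63.7% and 66.6% of those peak sets and in 63.4% of all X windows, GAGAGAGA in 3.03%, 2.76% and 6.33%, with 1.65% of all X windows, and TATAAA in 27.3%, 33.0% and 27.1%, with 18840 of the 58866 X windows. TGATAA was in 18.2%, 29.9% and 18.1%, with 27.1%. CACGTG was in 0 of 33 X optimal windows, 4.63% of X candidates and 6.63% of autosomal optimal windows, with 3.93% of all X windows. TTTCCCGC was in 0 of 33, 0.898% and 2.41%, with 0.987%, and TTTGGCGC in 2 of 33 (6.06%), 0.414% and 1.51%, with 0.754%. The G+C content of the windows was 40.7% ± 6.89 for X optimal (SD over 33 windows) and 35.7% ± 6.54 for X candidates (SD over 1448). In the replicate lists top-ranked X peaks were higher than the rest of X by 4.50 percentage points ± 1.33 (SD, n = 3, exact sign-flip permutation p = 0.25). MEX-bearing optimal peaks averaged 36.6% G+C, promoter peaks 45.0% and the others 39.8%.

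Pooled peaks were less concentrated in the centre of the chromosome on X than on the autosomes. The central part of the chromosome, from 33.3% to 66.7% of its length, held 36.6% of X pooled peaks (34.2 to 39.1) and 43.8% of autosomal ones (42.6 to 44.9), with single autosomes between 42.1% and 46.0%. In the replicate lists the shares were 36.1%, 35.8% and 35.1% on X and 39.3%, 38.8% and 38.01% on the autosomes, a difference of -3.01 ± 0.144 percentage points (SD, n = 3, exact sign-flip permutation p = 0.25). With X cut into 10 equal stretches, pooled peaks ranged from 102 in the leftmost to 178 in the ninth, and protein-coding genes from 199 in the rightmost to 328 in the seventh. Optimal peaks were most frequent in the ninth stretch, with 7, and the seventh, with 6, and the fifth and the sixth had 1 each. The MEX-bearing optimal peaks stood apart from each other, with gaps between 538389 and 3431541 bp, and 0 pairs within 50 kb. Among all 33 optimal peaks 4 neighbouring pairs were within 50 kb and the median gap was 394420 bp.

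The neighbourhood of lin-15B was dense in peaks. Within 20 kb on either side of its start there were 13 pooled peaks, against 3.35 for a span of that size at the mean density of X. With X cut into 443 fixed stretches of 40 kb, the one that holds the lin-15B start had 11 peaks and the densest had 12. In replicates 1, 2 and 3 the span held 25, 39 and 20 peaks, against 12.9, 13.2 and 11.4 at the mean X density of each list. The span held 2 optimal peaks. The optimal peak 904 bp upstream of lin-15B, score 51.1, ranked 2221, 63 and 256. The other, 15906 bp after the lin-15B start, was the ZK678.t1 and nhr-255 peak, score 70.2. A further summit, in the lin-15B promoter window, had pooled rank 1039 and ranks 4832 and 347 in replicates 1 and 2. A summit in an intron of lin-15A, the neighbouring synMuv A gene, had pooled rank 1306, and the lin-15A promoter window held no pooled summit. Replicate 2 had 5 top-ranked peaks in the span, against 1 in replicate 1 and 2 in replicate 3. Native and transgenic copies of the locus cannot be told apart in these lists, and the part of the transgene in this density was not tested. None of the optimal peaks within 150 kb held the MEX core, and without X peaks within 50 kb of lin-15B the core was still more frequent in X than in autosomal optimal windows, by 28.73 percentage points.

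Promoter windows held LIN-15B peaks at a smaller share of X genes than of autosomal genes. A pooled summit lay in the promoter window of 233 of 2731 X protein-coding genes (8.53%) and 2249 of 17242 autosomal ones (13.04%), and an optimal summit in that of 14 X genes and 376 autosomal ones (2.18%). Of the 6 X signal element and dosage compensation genes examined (xol-1, fox-1, sex-1, ceh-39, sdc-1 and sdc-2), 0 had an optimal peak and 1, the homeobox gene ceh-39, had a pooled one, at rank 876. Of 12 synMuv and chromatin genes on X, 3 had a pooled peak and 0 an optimal one, against 2 and 1 of 6 on the autosomes. The 3 include lin-15B at rank 1039, where native and transgenic copies cannot be told apart. They also include the histone demethylase gene utx-1 at rank 4722. X holds 2 ribosomal protein genes, of which rpl-11.2 had an optimal peak, against 34 of 76 on the autosomes. Of 5 heat shock and chaperone genes, dnj-14 and hsp-3 had optimal peaks, against 7 of 54 on the autosomes. Of the 2 listed X genes for mitochondrial ribosome or respiration proteins, 0 were optimal, against 12 of 102 on the autosomes. They were ucr-2.1 at rank 1439 and ucr-2.2 at rank 6972. The list left out asg-2, for a subunit of ATP synthase, which had an optimal peak at rank 172, shared with glr-6.

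Pooled peaks at the noncoding and tissue-specific groups are given beside the shares over all protein-coding genes, 8.53% on X and 13.04% on the autosomes. Most X protein-coding genes had none, as did most X members of each group, and tRNA genes had the highest share of these groups on X. Of 276 tRNA genes on X, 72 had a pooled summit in the window around the gene start (26.1%) and 2, ZK678.t1 and C33G3.t2, an optimal one (0.725%), against 78 of 336 (23.2%) and 1 on the autosomes. The optimal summit at C33G3.t2 lay inside that gene. Of 74 microRNA genes 7 had a pooled peak, against 27 of 187 on the autosomes, the highest being the one at mir-239.2 (rank 472) and that at let-7 (rank 897), and of 33 snoRNA genes 4 had one (12.1%), against 86 of 313 on the autosomes (27.5%, 15 of them optimal), the highest at C34E11.20 (rank 472) and M163.14 (rank 1280). The rank 472 peak served both mir-239.2 and C34E11.20. An optimal peak at rank 350 lay 268 bp from mir-239.1 but was not in the window of a listed microRNA gene. Of the 3 snRNA genes 0 had one, against 19 of 126 on the autosomes. Of 75 neuronal receptor and channel genes 7 had a pooled peak (9.33%), against 7 of 146 on the autosomes, with glr-6 optimal, tyra-3 at rank 1525 and slo-2 at rank 2782. Pooled peaks were found at 1 of 23 homeobox genes on X and 3 of 58 on the autosomes, and at 2 of 25 nuclear hormone receptor genes on X (nhr-40 at rank 1068 and nhr-137 at rank 6351) and 17 of 247 on the autosomes. They were found at 1 of 35 neuropeptide genes on X (nlp-22, rank 6620) and 8 of 107 on the autosomes, and at 2 of 30 collagen genes on X (col-167, rank 6451, and col-175, rank 7132) and 9 of 142 on the autosomes. Chemoreceptor genes had them at 2 of 28 on X (srg-37, rank 1273, and srd-42, rank 5641) and 49 of 1143 on the autosomes, and vitellogenin genes at 0 of 5 on X and 0 of 1 on the autosomes.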

How the data were processed

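Peaks were analysed as deposited: per the deposited descriptions, the authors called peaks and background on each replicate's alignment and on the pool of 3, each against a control alignment, as input to a test of reproducibility (irreproducible discovery rate) that gave the optimal list. The score is the signal value deposited by the authors for each peak, with no stated scale. Aligner, peak caller and threshold: not given in the sources used here. The optimal list equals the 383 highest pooled scores. Coordinates are those of ce11; gene context came from Ensembl release 115 on WBcel235, the same assembly, whose chromosome lengths hold all peaks, and sequence and tRNA names from RefSeq on that assembly. Mitochondrial peaks were left out.

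Shares carry Wilson intervals, and replicate differences an exact two-sided sign-flip permutation test. Genes were named by a rule: every protein-coding start within 1000 bp of an X optimal summit, or both genes of a divergent promoter, list members with an optimal peak or the 2 with the highest pooled score, lin-15B and lin-15A. Outside the rule, xol-1, mom-1, egl-17 and Y41G9A.17 were named after their values were seen, and the X signal element list was given in full. The members, gene lists and words were chosen with earlier results of these data known, and the MEX comparison, the 2 bases beside the core and the exclusion of lin-15B were added after the values were seen. Alternatives were the ce10 lists, upper 50 percent of a list, other promoter windows, overlap rules, window lengths and each replicate left out. In measures other than recovery, leaving out a replicate meant keeping optimal peaks top-ranked in both others, or pooled peaks found in both others. The pooled list and its scores still drew on all 3 replicates. The functions were tested on simulated data with 0 misplaced peaks. Python 3.11.15 was used with numpy 2.4.6, pandas 2.3.3, scipy 1.17.1 and matplotlib 3.10.9.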

Additional observations from a re-analysis of the deposited data

How the results depend on the processing

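Of 73 alternative values, 29 moved by less than the SD over replicates, 1 of which changed sign, and 44 moved by more and kept their sign. That SD belongs to the matching value in the replicate lists, which can differ in size from the pooled one. For the optimal share it was 0.078 around -0.67, against a pooled difference of -2.43. The split into 29 and 44 therefore depends in part on unlike scales. The depth of each sample is unknown, 3 replicates cannot give a p below 0.25, and the 33 optimal X peaks limit every share of them. X and autosomal values were compared within each replicate list.

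The difference between X and autosomes in the optimal share, -2.43 percentage points, was -2.33 on ce10, -1.26 in the upper 50 percent of the optimal list, -8.66 among promoter peaks alone and -2.54 without X peaks within 50 kb of lin-15B. With each replicate left out it was -1.37 to -1.21, with fewer peaks counted as optimal. In the median score percentile, -1.69, leaving out a replicate by keeping pooled peaks found in both others gave -8.55 to -5.67. In the promoter share of optimal peaks, -46.49, the upper 50 percent gave -42.84, a window of 1000 bp before to 200 after the start -36.44, one of 250 to 50 bp -40.55, and leaving out replicates -51.05 to -34.07. In the promoter share of all pooled peaks, -12.10, the same settings gave -17.26, -13.19, -8.34 and -18.24 to -16.26.

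Recovery of optimal summits, -5.46, was -3.40 on ce10, -6.57 with summits within 100 bp and -6.92 without the lin-15B neighbourhood. Recovery of pooled summits, -1.78, ran from -3.82 without replicate 2 to 1.02 without replicate 3, the 1 change of sign, and its replicate SD was larger than the difference. The central share of X, 36.6%, was 35.5% in the upper 50 percent, 35.8% to 38.98% without single replicates, and 53.7% for a wider central stretch, the middle 50 percent of the length. The G+C difference between optimal and candidate X windows, 4.92 percentage points, was 8.57 in the upper 50 percent, 9.91 in windows reaching 50 bases to each side and 7.19 to 8.81 without single replicates.

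The MEX core difference between X and autosomal optimal peaks, 26.97 percentage points, was 32.43 with GCGCAGG, 33.95 with CGCAGGG, 17.88 in windows of 50 bases to each side, 39.42 outside promoters and 23.08 to 36.36 without single replicates. Against X candidates, 26.79, these were 32.44, 35.60, 17.97, 40.34 and 22.59 to 35.88. The 2 X peaks added by GCGCAGG and the 3 added by CGCAGGG include the one at ZK678.t1. There both words lie inside the tRNA gene, so that part of the larger differences is tRNA gene sequence. The causes of these shifts were not tested.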
